A study of Mus musculus with 20 samples.

Results

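The 42 genes described here encode the proteins that carry glucose into the cell, break it down to pyruvate and settle whether pyruvate leaves as lactate or enters the mitochondrion. They are a list of names along that route, matched by symbol and not by any measured value, and all 42 were found among the 21315 gene symbols of the files. By role they are 3 glucose transporters, 3 hexokinases, 7 enzymes of upper glycolysis, 4 bifunctional enzymes that set fructose 2,6-bisphosphate, 6 genes of lower glycolysis, 4 genes of lactate formation and transport, 9 of pyruvate entry, 2 phosphoglucomutases and 4 of the pentose phosphate pathway. Of these, 41 reached the minimum mean level for testing in every fit. The exception was Pdk4, a pyruvate dehydrogenase kinase known for its induction by fasting, whose scaled value lay between 0 and 2.18 over the 20 libraries.

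As background, glycolysis turns glucose into pyruvate in the cytosol and yields a small amount of ATP without oxygen. Lactate dehydrogenase converts pyruvate to lactate, which leaves through monocarboxylate transporters, whereas the pyruvate dehydrogenase complex, held back by its kinases, feeds pyruvate to the mitochondrion. Many genes of the route are textbook targets of HIF-1, a transcription factor stabilised at low oxygen, and activated macrophages and microglia are known to use more glycolysis.

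The study sequenced RNA of microglia from brains of C57BL/6 mice aged 9 months and compared mice with and without amyloid and with and without the complement receptor gene C3ar1. APP-KI mice carry a humanised App gene with familial Alzheimer mutations (NL-G-F) knocked into the mouse locus, and C3aRKO mice, a line backcrossed to C57BL/6J, carry a deletion of C3ar1 that is not limited to microglia. C3aR-positive microglia were gated on a Td-tomato reporter carried in the C3ar1 locus, in 3 WT and 3 APP-KI libraries, from littermates that carried the reporter, bred from a C3ar1 fl/fl line. The other 14 libraries held sorted microglia without that gate, 3 of WT, 3 of APP-KI, 3 of C3aRKO and 5 of APP-KI;C3aRKO littermates, the last of which are called double mutants. Both kinds of sample were gated as CD45mid CD11b+ cells. The replicate numbers do not say whether litters or days were shared, and the p-values measure only the spread between these libraries.

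Depth was between 13939559 and 30388941 reads in the libraries labelled C3aR+ and between 42239056 and 76608464 in all sorted microglia. APP-KI replicate 4, C3aRKO replicates 1 and 2 and double mutant replicate 1 held reads on 12386 to 13249 genes, APP-KI replicate 5 on 21210, and the other 15 libraries on 14885 to 17445. Each comparison of all sorted microglia is therefore given with all 14 libraries and again without these 5, which leaves 3 WT, 1 APP-KI, 1 C3aRKO and 4 double mutant libraries, a lone library being taken to vary like the others. All 5 belong to library series 2, read from the library numbers, of which only WT replicate 4 and double mutant replicate 2 then remain. This setting and a fit of library series 3 alone thus hold nearly the same libraries and are not separate checks. C3ar1 itself was at 39.9 to 80.4 in the 8 knockout libraries and at 165 to 388 in the 6 others of all sorted microglia, but at only 37.6 to 81.2 in the 3 libraries labelled WT, C3aR+, against 201 to 383 in APP-KI, C3aR+. The gate named in the label of those 3 WT libraries is thus not borne out by their C3ar1, and both groups are called by their label throughout. All libraries labelled C3aR+ belong to 1 library series that holds no knockout library, so series and gate cannot be told apart in this comparison. By flow cytometry of the reporter, the paper reports modest C3aR in most WT microglia and a shift towards high C3aR in APP-KI. Whether the low C3ar1 came from the gate was not tested. Y-linked genes placed all 6 libraries labelled C3aR+ as female, 1 of 3 WT, 2 of 3 APP-KI, 1 of 3 C3aRKO and 5 of 5 double mutant libraries as male. Microglial markers were abundant everywhere, and the summed level of 6 border macrophage markers was 472 to 694 in WT labelled C3aR+ against 178 to 395 in APP-KI labelled C3aR+, and 439 to 1184 in WT against 257 to 277 in APP-KI. Markers of other cell types moved too. In the libraries labelled C3aR+, 5 of 6 border macrophage markers, 4 of 8 microglial markers, the endothelial marker Pecam1 and the astrocyte marker Slc1a3 fell in APP-KI. The endothelial marker Flt1 rose by 3.75, the astrocyte marker Gfap by 2.58 and the oligodendrocyte marker Mbp by 1.07 on the log2 scale. Thus 1 rose and 1 fell of 5 endothelial markers tested (median -1.28) and of 6 astrocyte markers (median -0.18). Of 4 oligodendrocyte markers tested 1 rose (median 0.60). Summed levels there were 37.4 to 90.5 in WT and 167 to 322 in APP-KI for 6 endothelial markers, 86.7 to 114 and 156 to 169 for 6 of oligodendrocytes and 299 to 395 and 222 to 266 for 6 of astrocytes, all without overlap. The endothelial sum was higher although the median of the markers tested was below 0 and only Flt1 was called higher. It is thus not a rise of the list as a whole. In all sorted microglia Flt1 rose by 4.26 and Sall1, Mrc1 and F13a1 fell in APP-KI, with endothelial sums of 43.002 to 52.8 in WT and 195 to 256 in APP-KI. Flt1 was the 1 called of 5 endothelial markers tested there, whose median was 1.23. Over all libraries the highest sums were 24.9 for neurons, 52.1 for T and NK cells, 81.6 for mural cells, 21.9 for erythroid cells, 395 for astrocytes, 174 for oligodendrocytes and 751 for monocytes and neutrophils, and the lowest microglial sum was 8954. The part of these shifts in the values of the 42 genes was not tested, and in sorted bulk RNA fewer cells of a type and less RNA per cell cannot be told apart.

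**Figure D1:**
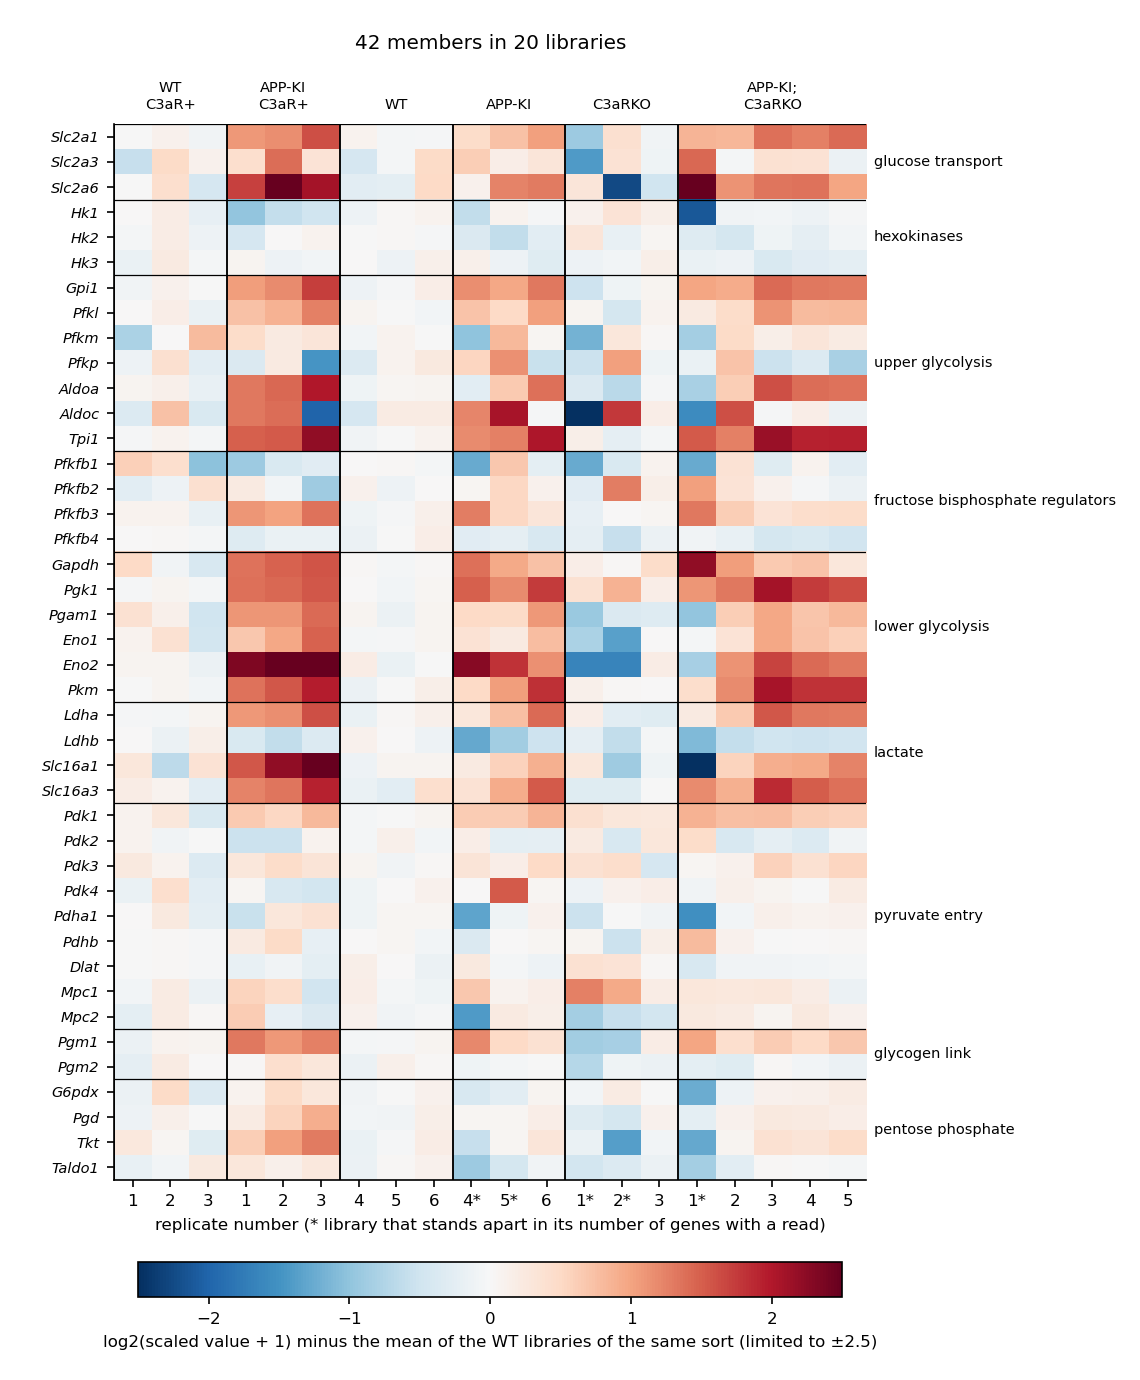
Heat map of the 42 members (rows, grouped by role) in the 20 libraries (columns, grouped by genotype and sort), with colour for log2(scaled value + 1) minus the mean of the WT libraries of the same gate, limited to 2.5 to each side, and asterisks for the 5 libraries that stand apart. Most rows of upper glycolysis, lower glycolysis and lactate handling are warmer in the columns of APP-KI and of double mutant microglia, and the rows of hexokinases and of the pyruvate dehydrogenase complex are not.

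In the libraries labelled C3aR+, 20 genes spread over glucose transport, glycolysis, lactate handling and the side branches rose in APP-KI. C3ar1 was at knockout level in the WT libraries of this comparison and in none of the APP-KI libraries, so the groups differ in C3ar1 as well as in genotype, and the C3aR+ label of the WT libraries is in doubt. Of the 41 members tested, 20 rose and 2 fell, where 13% of all 12312 genes tested rose and 9.71% fell (limma, adjusted p under 0.05). Every adjusted p here is from limma with Benjamini-Hochberg adjustment over all genes tested, and every fold change is given on the log2 scale with its SE. All 6 genes of lower glycolysis rose, as did 4 of 7 of upper glycolysis, 3 of 4 of lactate handling and 2 of 3 glucose transporters. None of the 3 hexokinases, none of the 3 subunits of the pyruvate dehydrogenase complex and neither pyruvate carrier rose. The median log2 fold change was 0.55 over the members and -0.17 over all genes tested. The values of 21 members were higher in every APP-KI than in every WT library, where 17.8% of all genes were. The scaling moves the baseline: with median ratio scaling the median over all genes was -0.029 and that over the members 0.69, with 20 members higher and 0 lower, and over all genes 1846 higher and 605 lower in place of 1602 and 1196.

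At the entry of glucose, Slc2a1 encodes GLUT1, the widely expressed basal transporter. Its scaled value (its reads over the upper quartile in that library, times 35.2) was 65.1, 70.1 and 61.4 in the 3 WT libraries labelled C3aR+ and 139, 147 and 203 in the 3 of APP-KI, so that the groups did not overlap, a log2 fold change of 1.28 ± 0.16 (SE) at an adjusted p of 5.3e-04 by limma. Slc2a6, which encodes GLUT6, a transporter of lysosomal membranes in macrophages, was at 3.99, 5.66 and 2.74 in WT and 15.3, 29.96 and 20.1 in APP-KI and rose by 2.14 ± 0.38 (limma adjusted p = 0.0038). Slc2a3, which encodes the high-affinity transporter GLUT3, was at 10.99, 24.1 and 18.3 in WT and 23.2, 46.2 and 21.9 in APP-KI. These groups overlapped and the difference of 0.72 ± 0.36 did not pass (limma adjusted p = 0.17). Slc2a3 lies on the minus strand of chromosome 6 at 122727809 to 122801640 (GRCm38), 0.045 Mb from C3ar1, and 6 more members lie on that chromosome at 1.904 Mb or more from it.

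Hexokinases trap glucose as glucose 6-phosphate. Hk2, the inducible form, was at 507, 595 and 477 in WT and 393, 526 and 553 in APP-KI, groups that overlapped, with a log2 fold change of -0.11 ± 0.15. Hk1, the constitutive form, was at 57.2, 64.2 and 49.2 in WT and 28.2, 37.3 and 39.8 in APP-KI and fell by 0.69 on the log2 scale (SE 0.19, limma adjusted p = 0.026). That call was lost with TMM or median ratio scaling, with edgeR and DESeq2 and without WT replicate 1, WT replicate 2 or APP-KI replicate 1, at an adjusted p of up to 0.11. Hk3, the form typical of myeloid cells, differed by -0.045 ± 0.13. Per kilobase of exon, Hk2 made up 64.5% ± 1.15 (SD, n = 3) of hexokinase transcript in WT and 65.4% ± 4.87 in APP-KI, so the most abundant hexokinase by this measure was the same in both.

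Of upper glycolysis, 4 of 7 genes rose and none fell. Gpi1, which turns glucose 6-phosphate into fructose 6-phosphate, rose by 1.32 ± 0.17 (adjusted p = 7.5e-04). Pfkl, the liver-type subunit of the committed enzyme phosphofructokinase, was at 126, 139 and 110.5 in WT and 208, 229 and 299 in APP-KI and rose by 0.95 ± 0.15 (adjusted p = 0.0023). Its 2 groups did not overlap. The other subunits differed by 0.33 ± 0.43 for Pfkm and -0.54 ± 0.47 for Pfkp without passing, and per kilobase Pfkl was 86.3% ± 4.41 of the phosphofructokinase transcript in WT and 92.5% ± 2.403 in APP-KI. Aldoa, the aldolase of most tissues, was at 227, 236 and 192 in WT and 545, 591 and 873 in APP-KI and rose by 1.59 ± 0.18 (adjusted p = 3.1e-04). Aldoc, the brain form, ran from 0.472 to 14.5 in the 6 libraries and overlapped. Tpi1, which interconverts the triose phosphates, was at 41.1, 44.7 and 40.4 in WT and 121, 124 and 199 in APP-KI and rose by 1.75 ± 0.19 (adjusted p = 2.9e-04).

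Among the 4 bifunctional enzymes that make and break fructose 2,6-bisphosphate, the activator of phosphofructokinase, only Pfkfb3 passed in these 6 libraries. Pfkfb3, the form with the strongest kinase activity, was at 306, 308 and 255 in WT and 619, 578 and 747 in APP-KI and rose by 1.15 ± 0.13 (adjusted p = 4.0e-04). Its per-kilobase share of the 4 genes was 66.4% ± 2.05 in WT and 83.8% ± 2.08 in APP-KI. Pfkfb1, Pfkfb2 and Pfkfb4 differed by -0.52 ± 0.61, -0.24 ± 0.36 and -0.21 ± 0.12.

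Lower glycolysis, the steps that yield ATP and pyruvate, had all 6 members higher, with a median log2 fold change of 1.46. Pkm, pyruvate kinase, which makes pyruvate, was at 228, 242 and 219 in WT and 589, 677 and 897 in APP-KI and rose by 1.62 ± 0.15 (adjusted p = 1.5e-04). Eno2, the enolase of neurons, was at 0.482, 0.488 and 0.285 in WT and 6.099, 8.02 and 17.1 in APP-KI, the largest rise of any member, 2.89 ± 0.50 (adjusted p = 0.0031), from a low level. In these WT libraries 3 reads would be a scaled value of 0.0964, 0.1465 and 0.1068. Eno1, the common enolase, rose by 1.04 ± 0.24 (adjusted p = 0.014) and still made up 94.5% ± 1.39 of enolase transcript per kilobase in APP-KI, against 99.5% ± 0.0504 in WT. Gapdh, which oxidises glyceraldehyde 3-phosphate, was at 22.8, 14.9 and 11.8 in WT and 42.02, 45.8 and 49.3 in APP-KI and rose by 1.46 ± 0.25 (adjusted p = 0.0033). Pgk1, the first step that makes ATP, was at 8.13, 8.79 and 7.97 in WT and 23.1, 24.1 and 26.4 in APP-KI and rose by 1.46 ± 0.26 (adjusted p = 0.0036). For both genes every APP-KI library was above every WT library. Pgam1, phosphoglycerate mutase, rose by 1.21 ± 0.34 (adjusted p = 0.032), a call lost without any 1 library other than WT replicate 1, at an adjusted p of 0.059 to 0.097. The levels of these genes are uncertain, since 67.96% of the 50-base stretches of Pgk1 transcripts, 58.4% of those of Gapdh, 49.5% of Eno1 and 41.5% of Pgam1 also occur in transcripts of other genes, mostly copies, and how such reads were counted is not given in the sources used here. The 10 members with over 20% of such stretches counted 6 risers and the 31 others tested 14.

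At the end of the route, the genes that make and export lactate rose. Ldha, the lactate dehydrogenase subunit that favours lactate formation, was at 77.95, 77.5 and 84.03 in WT and 169, 181 and 245 in APP-KI and rose by 1.29 ± 0.15 (adjusted p = 4.0e-04). Ldhb, the subunit that favours pyruvate, was at 259, 232 and 286 in WT and 197, 168 and 204 in APP-KI and fell by 0.45 on the log2 scale (SE 0.13, limma adjusted p = 0.03), a call lost with TMM or median ratio scaling, in edgeR and DESeq2, and without WT replicate 1, WT replicate 3 or APP-KI replicate 2, at an adjusted p of at most 0.12 for the libraries. Per kilobase, Ldha made up 17.6% ± 1.0001 of lactate dehydrogenase transcript in WT and 41.7% ± 4.09 in APP-KI. Slc16a3, which encodes MCT4, the lactate exporter of glycolytic cells, was at 35.1, 32.8 and 25.3 in WT and 74.2, 79.1 and 119 in APP-KI and rose by 1.498 ± 0.21 (adjusted p = 0.0011). Slc16a1, which encodes MCT1, a transporter of lactate and pyruvate in both directions, was at 12.1, 5.86 and 12.8 in WT and 30.5, 48.6 and 72.01 in APP-KI and rose by 2.18 ± 0.37 (adjusted p = 0.0029).

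Entry of pyruvate into the mitochondrion had 1 riser among 8 members tested. Pdk1, a kinase that switches off pyruvate dehydrogenase, was at 113, 129.6 and 81.6 in WT and 168, 152 and 186 in APP-KI and rose by 0.66 ± 0.17 (adjusted p = 0.021), a call lost without WT replicate 3 (adjusted p = 0.065) or APP-KI replicate 3 (0.058). The kinases Pdk2 and Pdk3 differed by -0.33 ± 0.25 and 0.36 ± 0.22. The 3 subunits of the complex, Pdha1, Pdhb and Dlat, differed by 0.036 ± 0.27, 0.17 ± 0.21 and -0.17 ± 0.18, and the carrier subunits Mpc1 and Mpc2 by 0.17 ± 0.29 and 0.024 ± 0.31, none of which passed. The 95% intervals of these 5 members reached from -0.67 to 0.81. Of the side branches, Pgm1, phosphoglucomutase, which links glucose 6-phosphate to glycogen, rose by 1.22 ± 0.20 (adjusted p = 0.0026), and Pgm2 differed by 0.24 ± 0.22. In the pentose phosphate pathway, which makes NADPH and ribose, Tkt, transketolase, rose by 0.98 ± 0.19 (adjusted p = 0.0061) and Pgd, 6-phosphogluconate dehydrogenase, by 0.55 ± 0.17 (adjusted p = 0.047), the latter lost without any 1 library other than APP-KI replicate 1, at an adjusted p of up to 0.13. G6pdx, its first enzyme, and Taldo1, transaldolase, differed by 0.28 ± 0.21 and 0.22 ± 0.14.

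**Figure D2:**
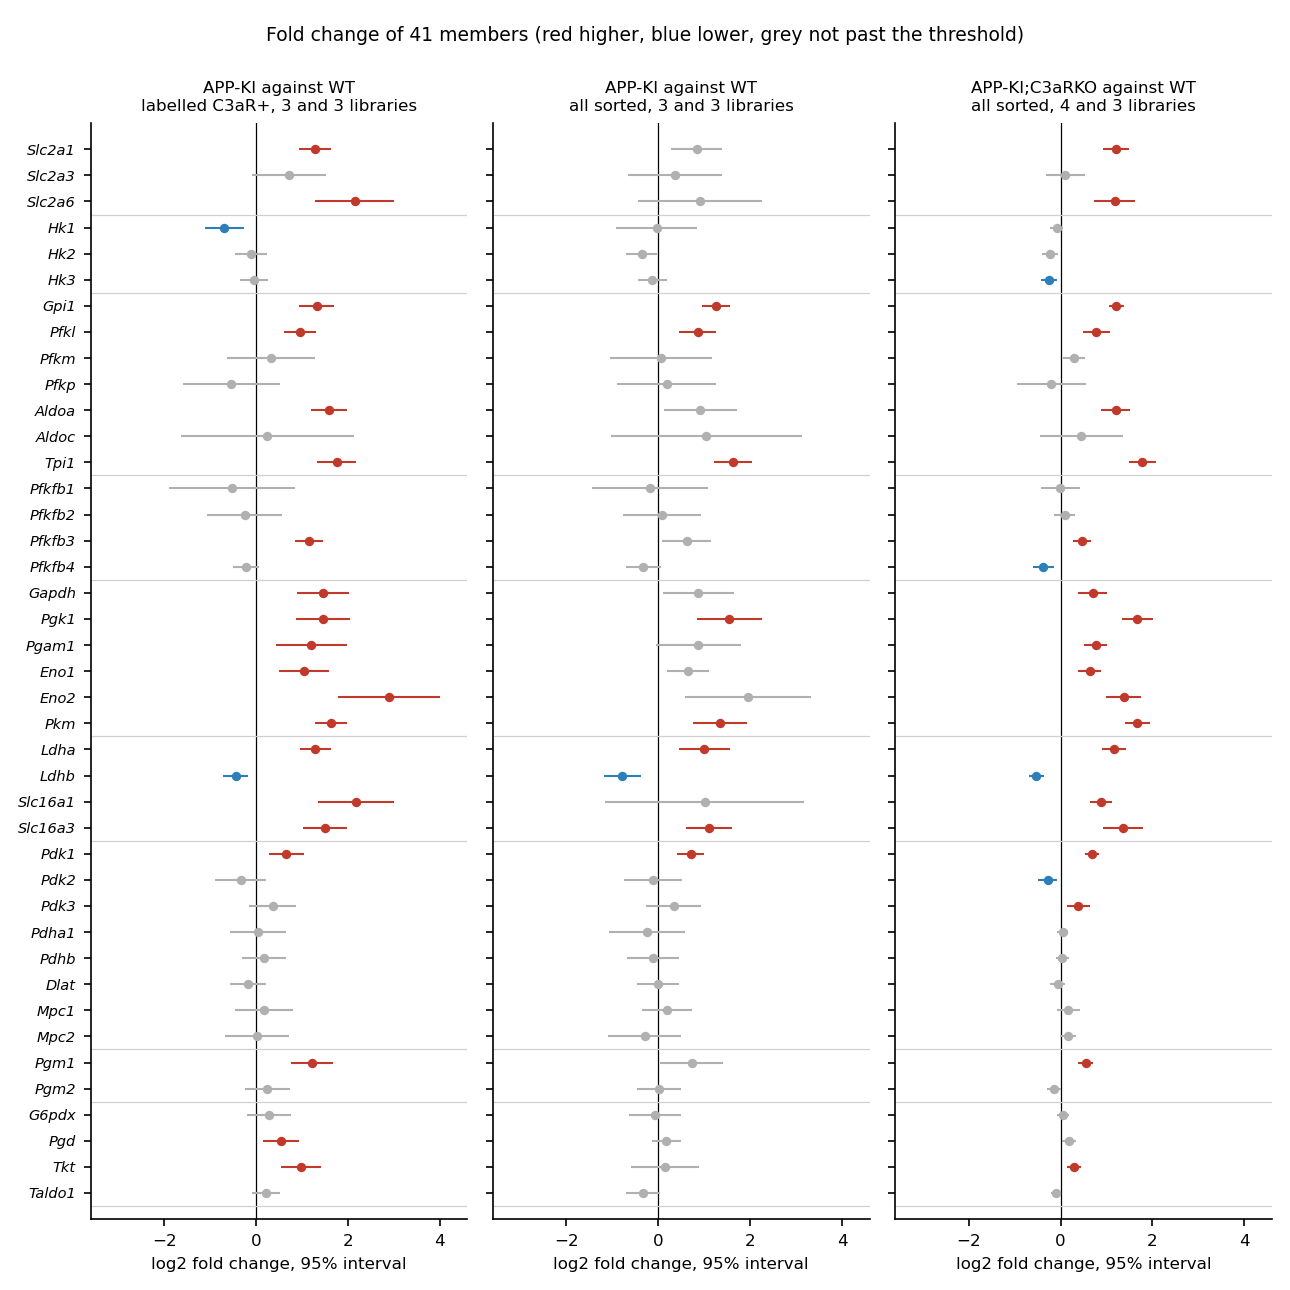
Log2 fold changes of the 41 members tested with 95% intervals from limma, by role, for APP-KI against WT in the libraries labelled C3aR+, for APP-KI against WT in all 14 libraries of all sorted microglia, and for APP-KI;C3aRKO against WT without the 5 libraries that stand apart. Lower glycolysis, Tpi1, Gpi1, Ldha and Slc16a3 lie to the right of 0 in each panel and Ldhb to the left, and no subunit of pyruvate dehydrogenase lies farther than 0.24 from 0.

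Sorted by textbook knowledge of HIF-1, the 19 members known as its targets had 14 higher and 1 lower, and their median log2 fold change was 1.21. The 22 other members tested had 6 higher and 1 lower, with a median of 0.20. All 10 members that the study placed in its hypoxia module rose, but that module was chosen on these libraries and is not independent evidence of its direction. Among textbook targets, Slc2a3, Hk2, Aldoc and Pfkfb4 did not pass. The list of targets shares members with the study's hypoxia module and was drawn up with earlier results of these data known. Its split is thus a description and no test of HIF-1.

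Because members rose together, the bases before their start sites were searched for the core letters bound by HIF-1, ACGTG or GCGTG on either strand (the core of the E-box CACGTG, read on both strands, counts as 2 matches). The windows are RefSeq promoters in GRCm38.p6, 300 bases long, with 250 before and 50 after each start, and 62 windows of 41 members were held, with none for Slc2a3. The letters occurred in 75.8% of member windows, in 43.8% of all 32851 windows and in 60.98% of the 12628 windows of genes tested. At least 1 window held them in 17 of the 20 members that rose in APP-KI labelled C3aR+ and in 20 of the 21 others, beside 66.99% of the 9849 genes tested that have a window. The mean GC content was 59.5% in member windows and 60.4% in windows of genes tested. The windows of Ldha, Slc16a3 and Pgk1, which rose, and of Hk2 and Ldhb, which did not, are shown to set the same letters side by side, with matches in capitals and each written 5′ to 3′ on the gene's strand. The first Ldha window held 7 matches with 2 E-boxes, Slc16a3, Pgk1 and Hk2 held 2 each, and Ldhb held 1.
Ldha, chr7:46845554-46845853, plus strand: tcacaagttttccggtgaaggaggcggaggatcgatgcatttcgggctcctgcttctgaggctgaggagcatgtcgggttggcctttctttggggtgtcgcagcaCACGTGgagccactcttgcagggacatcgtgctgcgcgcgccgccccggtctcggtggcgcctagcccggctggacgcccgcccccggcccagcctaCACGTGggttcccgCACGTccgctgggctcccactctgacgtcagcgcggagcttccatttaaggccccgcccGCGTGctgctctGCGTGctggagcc
Slc16a3, chr11:120948817-120949116, plus strand: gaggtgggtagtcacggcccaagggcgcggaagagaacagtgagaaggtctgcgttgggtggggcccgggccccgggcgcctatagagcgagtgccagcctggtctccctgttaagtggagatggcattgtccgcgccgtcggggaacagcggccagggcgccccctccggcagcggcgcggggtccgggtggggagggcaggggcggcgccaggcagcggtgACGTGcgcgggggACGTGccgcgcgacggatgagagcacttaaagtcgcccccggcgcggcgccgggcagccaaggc
Pgk1, chrX:106186850-106187149, plus strand: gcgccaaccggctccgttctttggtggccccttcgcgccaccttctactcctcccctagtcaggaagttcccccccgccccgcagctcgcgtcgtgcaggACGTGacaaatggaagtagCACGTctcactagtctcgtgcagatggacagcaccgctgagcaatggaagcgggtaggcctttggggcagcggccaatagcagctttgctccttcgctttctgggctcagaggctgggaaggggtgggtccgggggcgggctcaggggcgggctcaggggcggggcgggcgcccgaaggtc
Hk2, chr6:82774405-82774704, minus strand: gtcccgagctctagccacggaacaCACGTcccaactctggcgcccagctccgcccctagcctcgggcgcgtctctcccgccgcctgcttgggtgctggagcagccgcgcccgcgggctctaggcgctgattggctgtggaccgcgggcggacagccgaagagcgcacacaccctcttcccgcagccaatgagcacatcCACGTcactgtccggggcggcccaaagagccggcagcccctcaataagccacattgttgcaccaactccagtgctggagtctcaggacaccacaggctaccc
Ldhb, chr6:142507908-142508207, minus strand: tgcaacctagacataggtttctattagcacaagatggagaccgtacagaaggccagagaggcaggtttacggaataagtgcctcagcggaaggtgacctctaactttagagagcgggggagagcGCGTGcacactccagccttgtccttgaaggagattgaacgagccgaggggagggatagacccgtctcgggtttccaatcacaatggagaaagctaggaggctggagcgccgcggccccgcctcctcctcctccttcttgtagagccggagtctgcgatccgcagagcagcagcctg

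The windows of Tpi1, Gpi1 and Eno2, which rose strongly, held no match. No match says only that these letters are absent from this window, and a match is a description of the letters.

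In all sorted microglia, where cells were not gated on C3aR, 8 members of upper and lower glycolysis, lactate handling and pyruvate entry rose in APP-KI. With all libraries 8 of 41 members rose and 1 fell, where 2.22% of 12406 genes tested rose and 1.93% fell. The risers were Tpi1, Pgk1, Pkm, Gpi1, Slc16a3, Ldha, Pfkl and Pdk1, and the member that fell was Ldhb. All 8 are among the 20 that rose in the libraries labelled C3aR+, which share no library with these. The median log2 fold change was 0.33 over members and -0.012 over all genes tested. Without the 5 libraries that stand apart, 16 members rose and 1 fell, where 7.88% and 7.81% of genes did, with APP-KI then a single library. Of these risers all 16 were among the 20 of the libraries labelled C3aR+, and Pfkfb3, Pgd, Pgm1 and Tkt made up the rest of that list. The count with all libraries came to 3 without WT replicate 5 and to 2 without APP-KI replicate 6. How many of all genes were called in these fits was not taken, so these counts are no result about the members. The values of 16 members with all libraries were higher in every APP-KI than in every WT library, against 12.8% of all genes.

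Tpi1 was at 37.2, 39.1 and 42.2 in WT replicates 4, 5 and 6 and 90.7, 95.5 and 163 in the same replicates of APP-KI, and rose by 1.63 ± 0.20 (adjusted p = 1.8e-04) by limma. Gpi1 was at 117, 125 and 143 in WT and 287, 251 and 320.1 in APP-KI and rose by 1.25 ± 0.14 (adjusted p = 7.3e-05). These were the only members whose calls held without each library in turn. Pgk1 was at 6.76, 6.36 and 7.005 in WT and 20.6, 16.5 and 24.8 in APP-KI and rose by 1.54 ± 0.33 (adjusted p = 0.014). Pkm was at 210.2, 231 and 257 in WT and 329.9, 479 and 829.6 in APP-KI, with its lowest value in replicate 4, a library with few genes, and rose by 1.35 ± 0.27 (adjusted p = 0.011). Pfkl was at 139.9, 132 and 126 in WT and 217, 188 and 271 in APP-KI and rose by 0.86 ± 0.19 (adjusted p = 0.015). For each of these 3 the groups did not overlap, yet the calls were lost without WT replicate 5 (adjusted p = 0.068, 0.054 and 0.076) or APP-KI replicate 6 (0.11, 0.11 and 0.11), and those of Pgk1 and Pfkl also without WT replicate 6 and of Pgk1 without WT replicate 4.

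At the lactate end, Ldha was at 77.3, 89.04 and 94.6 in WT and 106, 147 and 233 in APP-KI and rose by 1.00 ± 0.26 (adjusted p = 0.043). Slc16a3 was at 29.1, 27.3 and 44.3 in WT and 42.1, 63.6 and 96.1 in APP-KI, groups that overlapped through APP-KI replicate 4, and rose by 1.105 ± 0.24 (adjusted p = 0.015). Ldhb was at 330.2, 312 and 283 in WT and 127, 167 and 216 in APP-KI and fell by 0.79 on the log2 scale (SE 0.19, limma adjusted p = 0.028). So both lactate dehydrogenase genes passed, in opposite directions. Pdk1 was at 92.2, 94.3 and 100.1 in WT and 149, 148 and 173 in APP-KI and rose by 0.70 ± 0.13 (adjusted p = 0.0067). Ldha lost its call without any of 10 of the 14 libraries, with an adjusted p of up to 0.26. For Slc16a3 this happened on leaving out WT replicate 5 or APP-KI replicate 5 or 6 (up to 0.15), for Ldhb with WT replicate 4 or 5 or APP-KI replicate 4 or 6 (up to 0.32) and for Pdk1 with WT replicate 4 or APP-KI replicate 6 (up to 0.087).

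Slc2a1, Gapdh, Pfkfb3, Slc2a3 and Hk2 did not pass with all libraries. Slc2a1 was at 74.5, 67.7 and 68.4 in WT and 97.2, 117 and 143 in APP-KI without overlap, a difference of 0.83 ± 0.26 (adjusted p = 0.11), and it rose by 0.95 ± 0.19 (adjusted p = 0.014) without the 5 libraries. Gapdh was at 17.3, 16.5 and 17.4 in WT and 45.6, 33.6 and 28.9 in APP-KI, a difference of 0.87 ± 0.36 (adjusted p = 0.3), and rose by 0.82 ± 0.21 (adjusted p = 0.035) without the 5. Pfkfb3 was at 309.7, 325 and 363 in WT and 807, 476 and 412 in APP-KI. Its APP-KI values spread widely and the difference of 0.61 ± 0.25 passed in neither fit. Slc2a3 was at 14.6, 19.1 and 28.2 in WT and 30.96, 22.6 and 24.8 in APP-KI (0.37 ± 0.48). Hk2 was at 562, 572 and 553 in WT and 440.1, 369 and 471 in APP-KI, lower in each APP-KI library but with a difference of -0.36 ± 0.16 (adjusted p = 0.34). Hexokinases thus had no riser in either gate. Aldoa ran from 244 to 765 in APP-KI, lowest in replicate 4, and rose only without the 5 libraries (1.21 ± 0.20, adjusted p = 0.0075). Pgam1, Eno1, Eno2, Slc16a1 and Slc2a6 likewise passed only there, at 1.06, 0.70, 1.12, 0.78 and 1.23 on the log2 scale.

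By role, 3 of 7 genes of upper glycolysis, 2 of 6 of lower glycolysis, 2 of 4 of lactate handling and 1 of 8 of pyruvate entry rose with all libraries, and no glucose transporter, hexokinase, bifunctional enzyme, phosphoglucomutase or pentose phosphate gene passed. The pentose phosphate genes had a median of 0.043, with Tkt at 0.15 ± 0.34 and Pgd at 0.17 ± 0.15. All 8 risers belonged to the 19 textbook HIF-1 targets, whose median was 0.87, and the 22 others had a median of 0.036. That list was drawn up with earlier results of these data known, so this split is a description and no test of HIF-1.

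**Figure D3:**
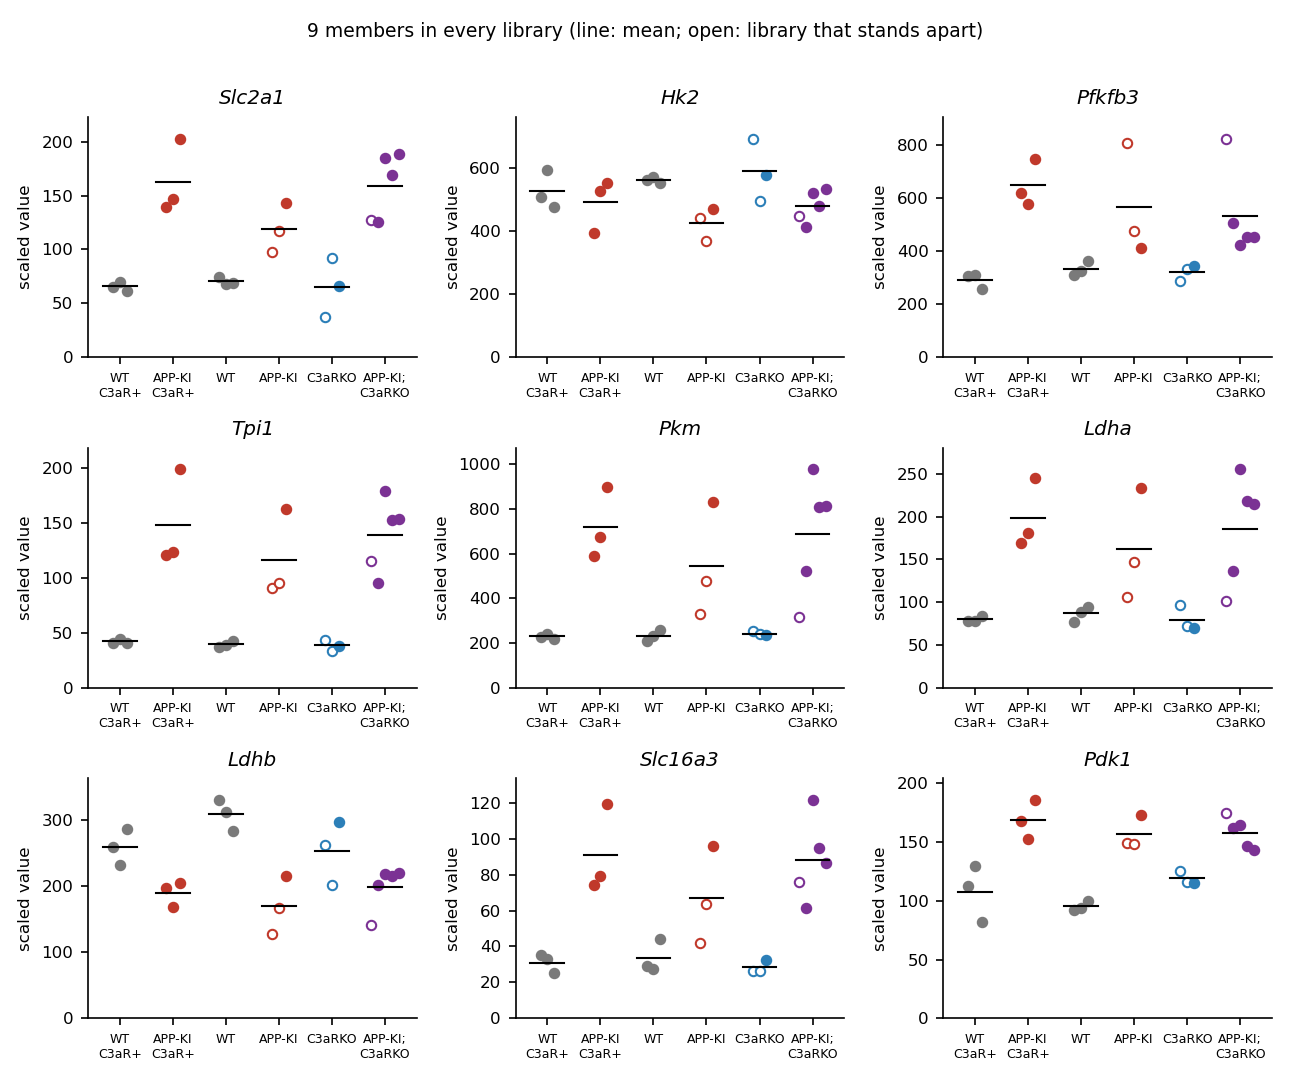
Scaled values of 9 members in each of the 20 libraries, by group, with points for libraries, open points for the 5 that stand apart and bars for the group means. Group means of Tpi1, Pkm, Ldha and Slc16a3 are higher in APP-KI and in double mutants than in WT and C3aRKO, those of Ldhb are lower and those of Hk2 are not higher, and APP-KI replicate 4 and double mutant replicate 1 are low for Pkm and Ldha.

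Whether the response to APP-KI was larger in the libraries labelled C3aR+ than in all sorted microglia was tested as the difference of the 2 effects, in 1 fit of all 20 libraries with a term for the library series within the sorted ones. All libraries labelled C3aR+ belong to 1 series, so the gate and the series cannot be told apart, and C3ar1 at knockout level in the WT libraries labelled C3aR+ puts the gate itself in doubt. No member and 0% of 12374 genes passed in limma, 1 member (Taldo1, 0.55 ± 0.23, named for that p) had an unadjusted p under 0.05, and edgeR and DESeq2 called 0 members each. The share of all genes at that unadjusted threshold is not given here. The differences ran from -0.80 to 1.23, and the 95% interval stayed within 1 log2 unit for 15 of 41 members. Slc2a6 and Slc16a1 had the largest estimates, with intervals of -0.45 to 2.92 and -1.52 to 3.86. Without the 5 libraries, which leaves 1 APP-KI library of all sorted microglia, the differences ran from -0.62 to 1.77.

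Ratios of related genes within a library depend little on the scaling between libraries, and 17 pairs were compared on scaled value + 1. The log2 ratio of Ldhb to Ldha was 1.72, 1.57 and 1.75 in WT labelled C3aR+ and 0.22, -0.10 and -0.26 in APP-KI labelled C3aR+, a mean of 1.68 ± 0.10 (SD, n = 3) against -0.051 ± 0.24. In all sorted microglia it was 2.08, 1.798 and 1.57 in WT and 0.26, 0.19 and -0.11 in APP-KI. C3aRKO libraries had 1.43, 1.47 and 2.07 and double mutants 0.48, 0.56, -0.23, -0.026 and 0.038. Both genotypes with APP-KI thus lay apart from both without it in every library, those with few genes included. An exact two-sided permutation test of 3 against 3 cannot go below 0.1, which the ratio reached in both gates (adjusted over 17 pairs 0.19 and 0.34). In the libraries labelled C3aR+ 9 of 17 ratios did not overlap between the genotypes. Those of Pdk1 to Pdk2, Eno2 to Eno1, Pfkfb3 to Pfkfb2, Slc2a6 to Slc2a3, Hk2 to Hk1, Hk3 to Hk1 and Pdk3 to Pdk2 were higher in APP-KI and those of Ldhb to Ldha and Pfkp to Pfkl lower. In all sorted microglia 5 did not overlap, with Pdk1 to Pdk2, Eno2 to Eno1 and Pdk3 to Pdk2 higher and Ldhb to Ldha and Pfkfb4 to Pfkfb2 lower. By permutation alone, a ratio of 3 against 3 libraries lies wholly apart with a probability of 0.1, and no ratio passed adjustment in either gate. Pairs such as Hk2 to Hk1 and Hk3 to Hk1 share a gene, so the counts are not of separate results. The share over other pairs of genes was not taken. The ratio of Pdk1 to Pdk2 differed by 0.99 in libraries labelled C3aR+ and 0.81 in all sorted microglia. Hk2 to Hk1 differed by 0.58 in the first and -0.22 in the second, where the groups overlapped.

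**Figure D4:**
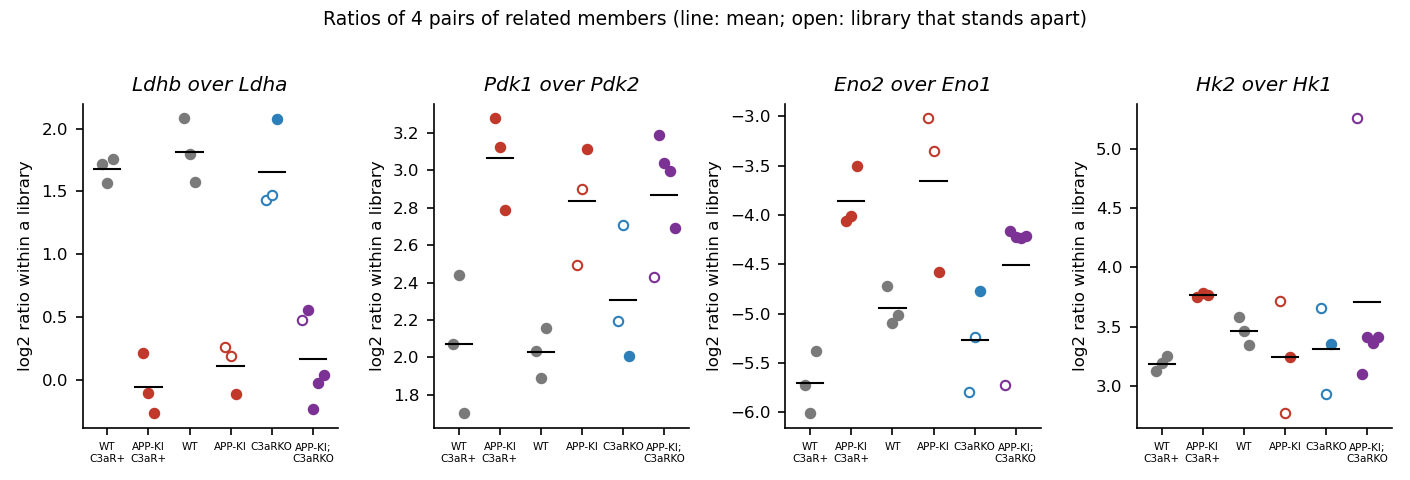
Log2 ratios of Ldhb to Ldha, Pdk1 to Pdk2, Eno2 to Eno1 and Hk2 to Hk1 in each library, by group, with open points for the 5 libraries that stand apart and bars for group means. Ldhb to Ldha is at most 0.56 in every library of APP-KI and double mutant microglia and at least 1.43 in every other.

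Deletion of C3ar1 was compared without and with amyloid. C3ar1 itself fell in both comparisons (-2.39 ± 0.27, adjusted p = 0.0034 in C3aRKO against WT, -1.95 ± 0.24, adjusted p = 0.0097 in double mutants against APP-KI), and it was the 1 gene called in each, 0.00806% and 0.00806% of 12406. No member was called in either. In C3aRKO against WT the log2 differences of the members ran from -0.83 to 0.68, and 3 had an unadjusted p under 0.05 in limma (Eno1 at -0.52 ± 0.22, Pdk1 at 0.31 ± 0.13 and Mpc1 at 0.68 ± 0.26, named for that p). In double mutants against APP-KI they ran from -1.11 to 0.56 and 0 had an unadjusted p under 0.05. The share of all genes at that unadjusted threshold is not given here, so these counts are no result about the members. DESeq2 and edgeR also called 0 members in both. The median was -0.063 over the members and -0.030 over all genes in the first and 0.002 and -0.026 in the second.

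These intervals bound what could have gone unseen. In double mutants against APP-KI, the 95% intervals of 31 of 41 members stayed within 1 log2 unit of 0, and all 41 held 0. Ldha differed by 0.047 ± 0.23 (95% interval -0.44 to 0.54), Pkm by 0.16 ± 0.24 (-0.37 to 0.68) and Tpi1 by 0.16 ± 0.18 (-0.21 to 0.54). Slc2a1 differed by 0.33 ± 0.23 (-0.16 to 0.82) and Slc16a3 by 0.29 ± 0.21 (-0.16 to 0.74). All 5 estimates were above 0 in this fit, with intervals that also held values below 0. Hk2 differed by 0.13 ± 0.14, Pfkl by -0.16 ± 0.17, Pfkfb3 by 0.002 ± 0.22 and Pdk1 by 0.015 ± 0.12. Without the 5 libraries, 0 members were called in C3aRKO against WT and in double mutants against APP-KI, where 0.00824% and 0.00824% of genes were, and 6 and 0 members had an unadjusted p under 0.05. The differences between double mutants and the 1 remaining APP-KI library then ran from -0.29 to 0.29, and 39 of 41 intervals stayed within 1 log2 unit, with Ldha at -0.084 ± 0.16, Tpi1 at -0.089 ± 0.19, Pkm at -0.001 ± 0.17, Slc16a3 at 0.004 ± 0.28 and Slc2a1 at 0.26 ± 0.18. The sign of 3 of these 5 estimates thus turned.

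**Figure D5:**
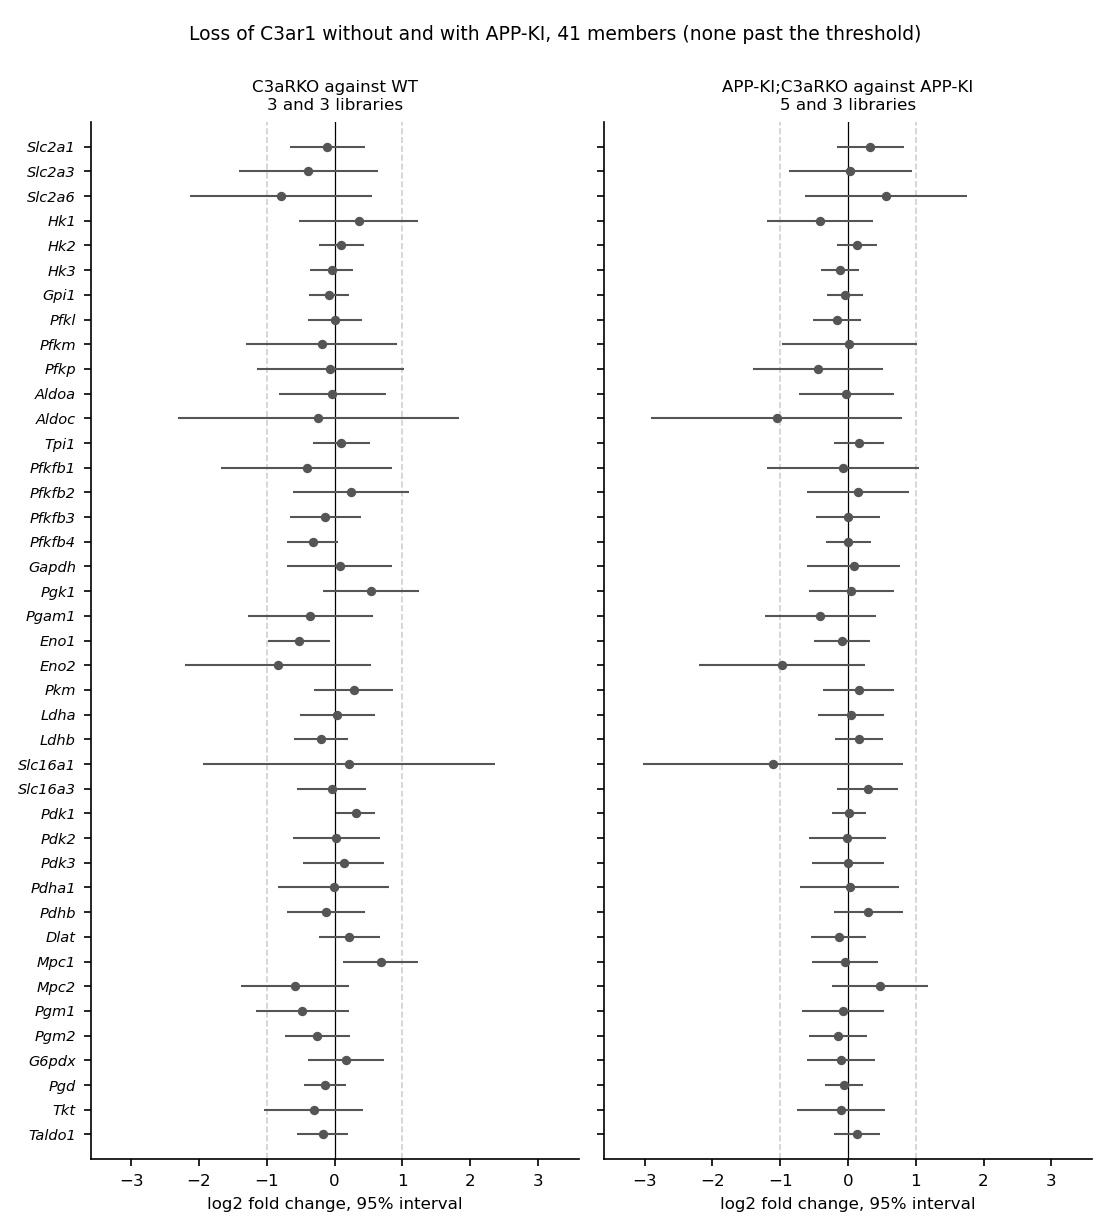
Log2 fold changes of the 41 members with 95% intervals from limma for C3ar1 loss without amyloid (C3aRKO against WT) and with it (APP-KI;C3aRKO against APP-KI), by role, with dashed lines at 1 log2 unit to each side of 0. No member passed in either panel and the intervals in the second panel all hold 0.

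Whether C3ar1 loss acted differently with and without amyloid was tested as an interaction. No member and 0% of 12406 genes passed in limma, 0 members had an unadjusted p under 0.05, and edgeR and DESeq2 called 0 members. The estimates ran from -1.32 to 1.35 and 17 of 41 intervals stayed within 1 log2 unit. The values of Ldha (0.005 ± 0.35) and Tpi1 (0.063 ± 0.27) lay near 0. When the 5 libraries were left out, with 1 APP-KI and 1 C3aRKO library, the estimates ran from -0.67 to 0.53.

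In microglia that lack C3ar1, glycolytic genes were again higher with amyloid. Of 41 members, 11 rose and 0 fell in double mutants against C3aRKO, where 3.96% and 2.97% of all genes did. The risers were Slc2a6, Tpi1, Slc16a3, Gpi1, Slc2a1, Pkm, Pgm1, Eno1, Pgk1, Ldha and Pfkl. The median was 0.31 over the members and -0.034 over all genes. All 5 double mutants were male and 2 of 3 C3aRKO libraries female, so sex moves with this contrast, and with a sex term 7 members rose and 1 fell. The share of all genes called in the fit with a sex term was not taken. Without the 5 libraries that stand apart, which leaves C3aRKO replicate 3 alone, 20 rose and 3 fell (Hk3, Ldhb and Pdk2), where 14.3% and 20% of genes did. That C3aRKO library is female and the 4 double mutants are male, so sex and amyloid cannot be told apart in this fit. Most of the risers also rose in APP-KI against WT in the same fit. Gapdh rose only in APP-KI against WT, and Mpc2, Pdk3, Pfkfb3, Pgm1 and Tkt only in double mutants against C3aRKO. Both contrasts compare different libraries but take their spread and library series term from the same fit, so their lists are not independent. The 1 APP-KI library of APP-KI against WT there is male and 2 of its 3 WT libraries are female. Flt1 rose by 3.798 and Mbp by 1.06 in double mutants against C3aRKO, and Mrc1, F13a1 and Ccr2 fell, with all libraries, and their part in the members' values was not tested. Flt1 was the 1 called of 5 endothelial markers tested (median 0.39). Mbp was the 1 called of 4 oligodendrocyte markers tested (median -0.18). With all libraries the count was 6 without C3aRKO replicate 3. How many of all genes were called in that fit was not taken, so this count is no result about the members.

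Tpi1 was at 43.6, 33.8 and 38.2 in C3aRKO and 115, 95.6, 179, 153 and 154 in double mutant replicates 1 to 5, without overlap, and rose by 1.69 ± 0.18 (adjusted p = 2.6e-05) by limma. The groups did not overlap for Gpi1 either, which was at 89.7, 118 and 133 in C3aRKO and 254, 244, 343, 322 and 316 in double mutants and rose by 1.29 ± 0.12 (adjusted p = 1.2e-05). Slc2a1 was at 36.99, 92.3 and 65.8 and 127, 125, 185, 169 and 189 in the same order and rose by 1.27 ± 0.23 (adjusted p = 0.0032). In all 3 the lowest double mutant library exceeded the highest C3aRKO library. Slc16a3 was at 26.2, 26.3 and 32.4 in C3aRKO and 75.7, 61.3, 122, 95.1 and 86.3 in double mutants and rose by 1.44 ± 0.21 (adjusted p = 6.1e-04). Pkm was at 254, 238 and 234 in C3aRKO and 316, 525, 978, 809 and 816 in double mutants and rose by 1.22 ± 0.24 (adjusted p = 0.0066). Ldha was at 96.8, 71.8 and 69.99 in C3aRKO and 101.4, 137, 255, 219 and 214 in double mutants and rose by 1.003 ± 0.23 (adjusted p = 0.015). For Pkm and Ldha, replicate 1 of the double mutants, the library with the fewest genes, was the lowest of the 5.

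Slc2a6 was at 7.88, 0.503 and 4.09 in C3aRKO and 41.01, 14.6, 17.1, 17.4 and 13.2 in double mutants, with the extremes in libraries with few genes, and rose by 2.26 ± 0.56 (adjusted p = 0.024). Pgm1 was at 10.8, 11.2 and 23.6 in C3aRKO and 41.9, 27.9, 32.7, 29.6 and 33.6 in double mutants and rose by 1.13 ± 0.28 (adjusted p = 0.027). Eno1 was at 54.6, 36.7 and 96.3 in C3aRKO and 92.7, 121, 188, 157 and 144 in double mutants, where replicate 1 lay below C3aRKO replicate 3, and rose by 1.07 ± 0.19 (adjusted p = 0.0029). Without the 5 libraries these rises were 1.76 ± 0.28, 0.41 ± 0.10 and 0.70 ± 0.16. Slc16a1 held no read in double mutant replicate 1, where 3 reads would be a scaled value of 0.0679, and was at 35.2 to 57.3 in the other 4 against 28.9, 12.3 and 21.9 in C3aRKO. It passed only without the 5 libraries (1.099 ± 0.15, adjusted p = 0.0016). Eno2 held no read in C3aRKO replicates 1 and 2, where 3 reads would be 0.0442 and 0.0472, and was at 2.56 in replicate 3 against 0.769, 5.82, 9.13, 7.401 and 6.85 in double mutants.

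Set against WT, double mutants also had members of this line higher. With all libraries 9 members rose (Tpi1, Pgk1, Pkm, Slc16a3, Gpi1, Slc2a1, Ldha, Pdk1 and Pfkl) and Ldhb fell, where 2.81% and 2.39% of all genes did, and this contrast uses the WT libraries of the comparisons above. All 5 double mutants are male and 2 of 3 WT libraries female, and with a sex term 8 members rose and 1 fell. The share of all genes called with the sex term was not taken. Flt1 rose by 3.88 in double mutants against WT as well, the 1 called of 5 endothelial markers tested, whose median was 0.021. Tpi1 rose by 1.79 ± 0.17 (adjusted p = 1.3e-05), Pkm by 1.502 ± 0.24 (adjusted p = 0.0013) and Ldha by 1.05 ± 0.23 (adjusted p = 0.012), all by limma. Without the 5 libraries, 4 double mutants met 3 WT libraries, and 20 members rose and 4 fell, where 16.5% and 19.4% of all genes did. The members that fell there were Ldhb (-0.52 ± 0.067), Pfkfb4 (-0.37 ± 0.10), Pdk2 (-0.28 ± 0.087) and Hk3 (-0.25 ± 0.076). In that fit Pdk1 rose by 0.68 ± 0.069 (adjusted p = 2.6e-04), Pdk3 by 0.39 ± 0.11 (adjusted p = 0.026), Pfkfb3 by 0.47 ± 0.083 (adjusted p = 0.0039) and Gapdh by 0.70 ± 0.13 (adjusted p = 0.0056). Over the genotypes, the enzyme that favours pyruvate, Ldhb, was at 142, 202, 218, 215 and 220.2 in double mutants and 262, 201 and 297 in C3aRKO, against 283 to 330.2 in WT. Every double mutant library was below every WT library. Pdk1 was at 175, 162, 164, 147 and 143 and 125, 116 and 115 in the same order, again without overlap. Hk2 was at 449, 412, 519, 479.6 and 534 in double mutants and 693, 495 and 579 in C3aRKO and passed in no comparison, with or without the 5 libraries. Pgk1 was at 15.6, 18.1, 31.6, 24.8 and 22.9 in double mutants and 9.03, 13.1 and 7.61 in C3aRKO. Pfkl was at 154, 182, 289, 231 and 234 in double mutants and 138, 97.1 and 140.2 in C3aRKO. Both were thus higher in each double mutant than in each C3aRKO library. Pfkfb3 was at 825, 507, 422, 453 and 455 in double mutants and 287, 334 and 343 in C3aRKO. Gapdh was at 82.5, 36.4, 27.6, 28.6 and 20.96 in double mutants and 19.3, 17.4 and 23.8 in C3aRKO, groups that overlapped through double mutant replicate 5. Pfkfb3 and Gapdh were highest in double mutant replicate 1. Slc2a3 was at 55.5, 19.3, 26.3, 25.97 and 17.97 in double mutants and 6.84, 25.8 and 18.3 in C3aRKO and passed in no comparison.

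The per-kilobase share of Ldha in lactate dehydrogenase transcript can be set side by side for the 6 groups. It was 17.6% ± 1.0001 (SD, n = 3) in WT labelled C3aR+, 16.3% ± 2.41 in WT and 17.97% ± 3.503 in C3aRKO, and these 3 groups overlapped. It was 41.7% ± 4.09 in APP-KI labelled C3aR+, 38.9% ± 3.31 in APP-KI and 38.1% ± 5.54 (n = 5) in double mutants, which overlapped one another as well. Pdk1 likewise made up 47.6% ± 1.28 of the 4 pyruvate dehydrogenase kinases in WT, 50.99% ± 1.84 in C3aRKO, 57.3% ± 2.57 in APP-KI and 57.6% ± 3.44 in double mutants. Hk2 remained between 60.9% and 65.9% of hexokinase transcript in all 6 group means.

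Further genes of glucose handling, 64 listed by their textbook place in the pathway and 50 of them tested, were also followed. In the libraries labelled C3aR+ 11 rose and 2 fell in APP-KI, beside 13% and 9.71% of all genes, with a median of -0.076. Those with the largest rises were Slc16a8, the lactate transporter MCT3 (2.31 ± 0.51, adjusted p = 0.011), Tigar, a phosphatase that lowers fructose 2,6-bisphosphate (2.02 ± 0.43, adjusted p = 0.0094), and Gyg, glycogenin, the primer of glycogen (1.89 ± 0.32, adjusted p = 0.0029). Those that fell were Gpd1, glycerol 3-phosphate dehydrogenase (-1.39 ± 0.39, adjusted p = 0.03), and Txnip, an arrestin-like protein that takes glucose transporters off the surface (-0.82 ± 0.11, adjusted p = 8.6e-04). In all sorted microglia the counts were near the background of 2.22% and 1.93%, and are no result about the list. Here 2 of 50 rose in APP-KI, Slc16a8 (2.100 ± 0.52, adjusted p = 0.035) and Arrdc4, a relative of Txnip (1.24 ± 0.24, adjusted p = 0.0068), and 2 fell, Txnip (-1.08 ± 0.25, adjusted p = 0.021) and Slc2a5, the fructose transporter GLUT5 that marks microglia (-1.404 ± 0.37, adjusted p = 0.048). Double mutants against C3aRKO had 4 of 50 higher and none lower, beside 3.96% and 2.97% of all genes, among them Gyg (1.94 ± 0.32, adjusted p = 0.0018) and Gpd2 (1.86 ± 0.49, adjusted p = 0.032). Against WT, double mutants had Arrdc4 higher (1.46 ± 0.21, adjusted p = 4.9e-04) and Slc2a5 (-1.23 ± 0.32, adjusted p = 0.039) and Txnip (-1.06 ± 0.22, adjusted p = 0.0078) lower, beside 2.81% and 2.39% of all genes. C3ar1 loss called 0 of the 50 by limma in both comparisons, with 2 and 0 at an unadjusted p under 0.05. The share of all genes at that unadjusted threshold is not given here.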

How the data were processed

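RNA of microglia sorted from mouse brain was measured by bulk RNA sequencing in 20 libraries (6 labelled C3aR+, 14 of all sorted microglia). Per the labels and methods, libraries were made with the Takara SMARTer Total RNA Pico kit, trimmed with cutadapt, aligned to mm10 with TopHat, counted with featureCounts and compared with DESeq2 by the authors. The files call their values FPKM, yet the deposited signal holds reads over the upper quartile (75th percentile) of that library, without length. Whole reads were recovered for 100% of values. Values were multiplied by 35.2, and 10 symbols on more than 1 of 21326 entries were summed, giving 21315.

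Scaled values plus 1 were taken to log2, genes averaging below 1 were dropped, and limma 3.58.1 in R 4.3.3 was run with its trend option, p-values being adjusted by Benjamini-Hochberg across every gene in the fit. Fold changes are on that scale, which understates low genes. The design had been written for FPKM, and this test was kept for the signal. libraries labelled C3aR+ were fitted alone, the 14 others together with the library series (read from library numbers) as a term, and the difference between gates in all 20. Alternatives were other scalings, pseudocounts and filters, left-out libraries, a replicate block, edgeR 4.0.16 and DESeq2 1.42.0 on the recovered reads. The fits across all genes were tested on simulated data. Ratios of related genes were tested with exact two-sided permutation tests. Intervals are at 95%. Lengths, shared 50-base stretches and positions came from the GRCm38 annotation, promoter windows from RefSeq. Depth was between 13939559 and 76608464 reads, which were taken as deposited and whether molecular identifiers were collapsed is not given in the sources used here, so a floor of 3 reads covers counting error only.

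The members, gene lists and tests were chosen with earlier results of these data known. All 42 members are named. Values by library are given for the up to 8 largest rises and 4 largest falls past the threshold in a comparison, and for Slc2a1, Slc2a3, Hk2, Pfkl, Pfkfb3, Ldha, Pkm, Slc16a3, Pdk1 and Gapdh throughout. Of the other pathway genes at most 3 rising and 3 falling are named per comparison. The 2 settings without libraries that stand apart, the sex term and the fit of library series 3 alone were chosen after the data were seen.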

Additional observations from a re-analysis of the deposited data

Results flagged for a closer look

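In the group of 5 double mutant libraries, 12 of 41 members tested for it had 1 library farther from the rest than Dixon's 95% criterion allows, where chance marks about 1 group in 20. Of these, 10 came from replicate 1, the library with reads on the fewest genes, so they are 1 pattern of that library. It lay above the other 4 libraries for Slc2a3 (scaled value 55.5 against 17.97 to 26.3), Slc2a6 (scaled value 41.01 against 13.2 to 17.5), Pfkfb3 (scaled value 825 against 422 to 507), Gapdh (scaled value 82.5 against 20.96 to 36.4) and Pdhb (scaled value 56.1 against 31.8 to 34.8). It lay below them for Hk1 (10.8 against 45.9 to 49.2), Pgam1 (4.07 against 14.5 to 18.6), Ldhb (142 against 202 to 220.2), Pdha1 (11.5 against 33.5 to 38.7) and Dlat (22.5 against 28.2 to 28.9). Aldoc was at 16.7 in replicate 2, against 0.928 to 5.46 in the others, and Mpc1 at 19.5 in replicate 5, against 25.03 to 26.7. The comparisons that use the double mutants are also given without replicate 1 and the 4 others that stand apart, and its part in each value beyond that was not tested.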

How the results depend on the processing

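In the libraries labelled C3aR+ 22 members were called, between 17 and 22 under every other scaling, filter, pseudocount, tool and block, and 18 to 20 without 1 library; 16 held at 0.05 under all of these, the others being Eno1, Hk1, Ldhb, Pdk1, Pgam1 and Pgd. At an adjusted p of 0.0005, 5 were called there and 2, 2 and 2 in APP-KI against WT, double mutants against C3aRKO and double mutants against WT of all sorted microglia, where 9, 11 and 10 had been. Without the 4 libraries with fewest genes these 3 counts were 21, 23 and 24, without the fifth library too 17, 23 and 24, and in library series 3 alone 20, 24 and 24. Fits of only the 2 groups compared called 4 and 6 in the first 2, and the first without the series term 5. With 1 library left out the counts ran from 2 to 11 in APP-KI against WT (5 without WT replicate 4, 3 without WT replicate 5, 2 without APP-KI replicate 6), 6 to 15 in double mutants against C3aRKO (6 without C3aRKO replicate 3) and 7 to 12 in double mutants against WT. Pfkp turned from 0.18 to -0.73 (limma adjusted p = 0.048) in library series 3 alone. Ratios that did not overlap in all sorted microglia numbered 5, and 5 to 11 without 1 library, the highest without APP-KI replicate 4. A smaller group lies apart more readily. The causes were not tested. In most of these settings the share of all genes called was not taken, so the counts are no result about the members.

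Same-numbered libraries correlated at -0.29 to 0.25 in their deviations from the group means. In APP-KI against WT of all sorted microglia they were at 0.25, 0.093 and 0.095, and libraries of unlike number at -0.22 to 0.20. The numbers were not taken as pairs, and these values do not settle whether they are. With the replicate block 20, 11, 2 and 3 members were called in APP-KI against WT (labelled C3aR+, then all sorted), double mutants against APP-KI (0 without it) and double mutants against C3aRKO. The block kept only replicate numbers found in both groups. For double mutants against APP-KI these were replicates 4 and 5, and both of those APP-KI libraries stand apart in their number of genes. The share of all genes called with the block was not taken. With 3 to 5 libraries a group, and 1 in places once others are left out, a member that was not called can still differ by any amount that its interval holds.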
